A study of Mus musculus with 6 samples.

Results

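Surfactant and type 2 alveolar genes were compared between tumor tissue from mice with lung cancer alone (LC) and from mice with lung cancer and interstitial pneumonia (IP + LC). The 10 genes were taken by symbol from the count tables, which listed 31130 genes in each of the 6 tumors. They are Sftpc, Sftpb, Sftpa1 and Sftpd, which encode the surfactant proteins, Lamp3, Abca3, Slc34a2, Napsa, Etv5 and Lyz2. All 10 were found once in every table, and all 10 had enough molecules for the comparison, which covered 11240 genes. All mice were wild-type females, 6 to 8 weeks old, of the C57BL/6 strain, and all received Lewis lung carcinoma cells that carry a green fluorescent protein, injected through the pleura into the left lung in a basement membrane extract. The 3 IP + LC mice had also aspirated bleomycin, which causes lung injury followed by fibrosis, at 2 mg/kg body weight, 2 weeks before the cells. The scheme of the study shows saline in place of bleomycin for the LC mice, of which there were also 3. Tumors of both groups were collected on day 21, and the scheme counts days from the bleomycin or saline. A lung without tumor was not analysed here.

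Type 2 alveolar cells line the air sacs together with the flat type 1 cells. They make pulmonary surfactant, a mixture of phospholipids and proteins that lowers surface tension, store it in lamellar bodies and release it into the airspace, and they divide to replace alveolar epithelium after injury. Lewis lung carcinoma is a transplanted line, so that type 2 cells in a tumor sample come from the lung of the host. The labels call the samples lung cancer cells, but the tissue was not sorted, and transcripts of surfactant proteins were abundant in every tumor. In bulk tissue, fewer type 2 cells and less RNA per cell cannot be told apart.

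The values are counts of unique molecular identifiers (UMIs), short random tags by which copies of 1 molecule are counted once at the 3′ end of a transcript, so that they need no division by gene length. The libraries held between 592733 and 1631066 UMIs, and LC replicate 1 was the smallest. Levels are given as counts per 1000000 UMIs (CPM), on which 3 UMIs were worth 5.17 CPM for LC replicate 1 and 1.75 to 2.54 CPM for the other 5 libraries. LC replicate 1 also stood apart in its expression pattern, with a Pearson's r across genes of 0.840 and 0.799 to LC replicates 2 and 3, against 0.962 between those 2 and 0.968 to 0.973 within the IP + LC group.

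The 10 genes together were lower in the IP + LC group. They made up 4.84%, 5.08% and 5.11% of all UMIs in the LC tumors and 1.80%, 1.27% and 1.76% in the IP + LC tumors, so that the groups did not overlap. The mean share was 5.01% ± 0.147 in LC tumors and 1.61% ± 0.296 in IP + LC tumors (SD, n = 3, exact permutation p = 0.1, two-sided, the smallest value that 3 against 3 tumors allow). Each of the 10 genes had a negative log2 fold change, from -2.54 for Sftpa1 to -1.11 for Lyz2, with a median of -1.70, against a median of 0.02 over all tested genes. By the quasi-likelihood test of edgeR, with p-values adjusted over all tested genes by Benjamini and Hochberg, 9 of the 10 passed the limit of 0.1, and Abca3 did not. Of all tested genes, 19.6% passed as lower, 16.8% as higher and 36.4% in either direction. Scaled by library size only, the median of all genes moved up by 0.16, and 1800 genes were called lower and 2520 higher, against 2203 and 1885 with TMM scaling, while 9 of the 10 genes were still called lower. In 8 genes the 3 IP + LC tumors all lay below the 3 LC tumors, which was the case for 21.5% of all tested genes (21.6% lay above). Without LC replicate 1 all 10 genes were called lower, and without any other single tumor 8 were. Among all tested genes, 3367 of 11748 were called lower without LC replicate 1. Without another tumor it was from 1368 of 11787 (IP + LC replicate 2) to 1830 of 11770 (IP + LC replicate 3).

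**Figure D1:**
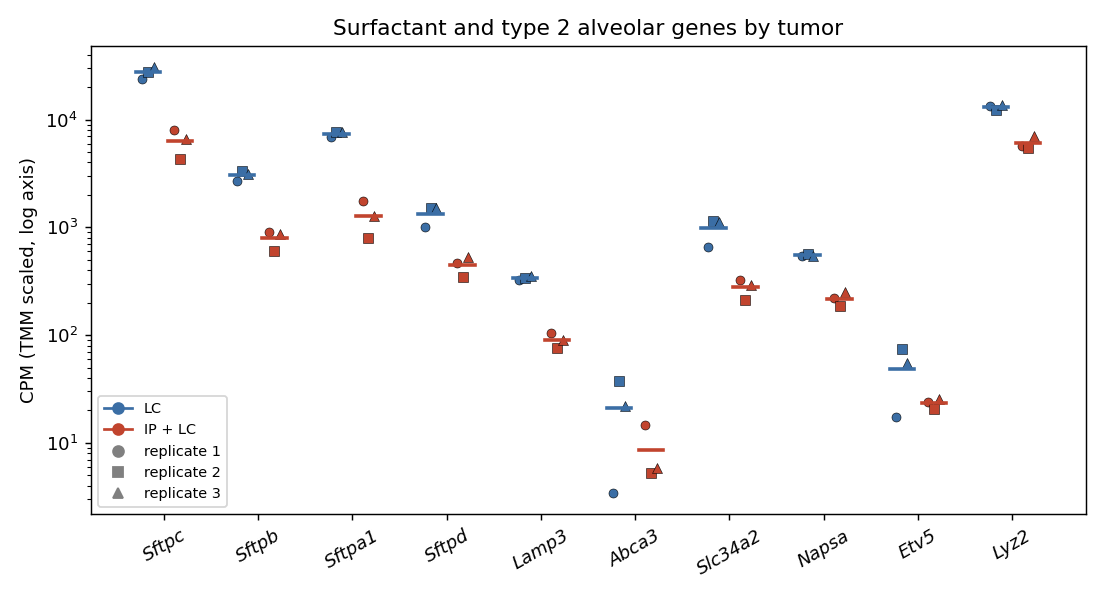
CPM of the 10 genes on a log axis in the 3 LC tumors (blue) and the 3 IP + LC tumors (red), with the replicate shown by the marker and the mean of each group by a bar. The groups are apart in 8 genes, and in Abca3 and Etv5 LC replicate 1, at 3.44 and 17.2 CPM, lies below the other LC tumors and below all IP + LC tumors.

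The hydrophobic surfactant proteins B and C insert into the phospholipid film. Sftpc, the most specific marker of type 2 cells, was at 23958, 27792 and 30648 CPM in LC replicates 1, 2 and 3 and at 8024, 4338.5 and 6677 CPM in the IP + LC replicates. Every IP + LC tumor was far below the lowest LC tumor. The log2 fold change of Sftpc was -2.11 (standard error, SE, 0.33, edgeR adjusted p = 0.00258), which is 4.33-fold lower with a 95% interval from 2.60-fold to 7.21-fold. By UMI count, Sftpc ranked between 2 and 4 among all genes in the LC tumors and between 5 and 11 in the IP + LC tumors. Sftpb, whose product is needed for lamellar bodies to form, was at 2676, 3337 and 3158 CPM in the LC tumors and at 911, 605 and 876 CPM in the IP + LC tumors. Its log2 fold change was -1.94 (SE 0.25, edgeR adjusted p = 0.00137). Sftpc lies on chromosome 14 of GRCm38 from 70520949 to 70524081, and Sftpb on chromosome 6 from 72304610 to 72314371.

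Surfactant proteins A and D are collectins, soluble lectins that bind microbes. Sftpa1, on the same chromosome as Sftpd, chromosome 14 (from 41131782 to 41136452), showed the largest change of the 10 genes. It was at 6826, 7739.8 and 7709 CPM in the LC tumors and at 1762, 801 and 1267 CPM in the IP + LC tumors. Every IP + LC tumor lay far below the LC tumors, with a log2 fold change of -2.54 (SE 0.32, edgeR adjusted p = 0.00137) and a fold from 3.50 to 9.67 lower in the 95% interval. Sftpd, from 41172214 to 41185149, was at 999, 1504 and 1528 CPM in the LC tumors and at 471, 343 and 533 CPM in the IP + LC tumors. Its decrease was smaller than that of Sftpa1 in value, with a log2 fold change of -1.58 (SE 0.26, edgeR adjusted p = 0.00356), and the 95% intervals of both genes overlapped.

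The promoters of these genes are known to hold sites for NKX2-1, the lineage factor of lung epithelium, and for forkhead factors. RefSeq promoter windows on GRCm38.p6 were matched for 7 of the 10 genes, with a pair of windows for Etv5. Sftpc, Sftpd and Napsa were not among them. In the 250 bases before the start, 4 short motifs were searched on both strands, CTCAAG (the core bound by NKX2-1), TGTTTNC (forkhead), TTGCNNAA (C/EBP) and GGAAGT (ETS). The first was found in Sftpb and Sftpa1, 2 of the 7 matched genes, and in 13.3% of all 32851 windows. The forkhead letters were found in 3 of the 7 (17.8% of all windows), the ETS letters in 2 (19.7%) and the C/EBP letters in 1 (9.56%). The windows of Sftpb (chr6:72304360-72304609, plus strand), Sftpa1 (chr14:41131538-41131787, plus strand) and Lyz2 (chr10:117282273-117282522, minus strand) are shown because Sftpb and Sftpa1 held the NKX2-1 letters and belong to the genes with the larger changes, while Lyz2 had the smallest change. Capitals mark every match to one of the 4 motifs.
Sftpb: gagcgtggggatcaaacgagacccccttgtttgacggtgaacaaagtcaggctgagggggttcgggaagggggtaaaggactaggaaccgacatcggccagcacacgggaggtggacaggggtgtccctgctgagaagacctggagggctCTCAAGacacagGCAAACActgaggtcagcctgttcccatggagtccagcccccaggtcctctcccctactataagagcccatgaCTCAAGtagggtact
Sftpa1: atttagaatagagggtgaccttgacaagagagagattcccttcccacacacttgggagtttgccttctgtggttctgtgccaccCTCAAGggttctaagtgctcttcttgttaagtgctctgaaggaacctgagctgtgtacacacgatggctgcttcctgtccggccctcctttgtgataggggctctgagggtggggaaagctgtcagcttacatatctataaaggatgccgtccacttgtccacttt
Lyz2: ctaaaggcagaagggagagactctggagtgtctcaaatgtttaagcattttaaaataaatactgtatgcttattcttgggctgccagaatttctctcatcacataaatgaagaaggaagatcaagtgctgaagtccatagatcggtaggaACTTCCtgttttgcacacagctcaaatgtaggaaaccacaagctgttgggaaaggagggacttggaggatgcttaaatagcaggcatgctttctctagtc
In Sftpb, NKX2-1 letters began 100 and 15 bases before the start and forkhead letters 88 bases before it. In Sftpa1, the single match began 166 bases before the start. In Lyz2, which is active in alveolar and in myeloid cells, an ETS match began 100 bases before it. These are matches of letters, and binding was not measured.

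Lamp3 (chromosome 16, from 19653378 to 19706375) and Abca3 (chromosome 17, from 24351950 to 24410201) belong to the lamellar body. Lamp3, a membrane glycoprotein of lamellar bodies that mature dendritic cells also carry, was at 322, 338 and 355 CPM in the LC tumors and at 105, 76.5 and 89.3 CPM in the IP + LC tumors. The tumors of each group were close together, with a coefficient of variation of 4.89% in the LC and 15.9% in the IP + LC group. Lamp3 had a log2 fold change of -1.91 (SE 0.21), and its adjusted p-value of 0.000885 from edgeR was the smallest of the 10. Up to 34.2% of a Lamp3 transcript had a near copy in Gm37599, Gm43096 or Ppid. Ppid had 47, 79 and 60 UMIs in the LC tumors and 142, 178 and 113 UMIs in the IP + LC tumors.

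Abca3, the pump that moves phospholipids into the lamellar body, had the fewest UMIs of the 10 genes. It had 2, 48 and 26 UMIs in the LC tumors and 20, 9 and 8 UMIs in the IP + LC tumors. The 2 UMIs of LC replicate 1 are 3.44 CPM with an exact 95% Poisson interval from 0.417 to 12.4 CPM, which covers counting error only. LC replicates 2 and 3, at 37.6 and 22.0 CPM, lay above all IP + LC tumors, at 14.5, 5.25 and 5.81 CPM, and LC replicate 1 lay below them. With all 6 tumors the log2 fold change was -1.47 (SE 0.62, edgeR adjusted p = 0.111), and it did not pass. With LC replicate 1 left out, it passed at -1.83 (edgeR adjusted p = 0.00142), and with LC replicate 2 left out it was -0.80 (edgeR adjusted p = 0.479). Abca3 shares up to 17.7% of a transcript with other genes, among them Trim27 and Med16. Trim27 had 23, 33 and 33 UMIs in the LC tumors and 106, 129 and 104 in the IP + LC tumors. Med16 had 9, 33 and 23 UMIs and 22, 18 and 22 UMIs. Another gene, D330041H03Rik, overlaps 9.75% of the exonic bases of Abca3 and had 16 UMIs in all tumors together. The strand setting of the counting is not stated.

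Slc34a2 (chromosome 5, from 53038081 to 53071664) and Napsa (chromosome 7, from 44572380 to 44586862) serve the surfactant cycle. Slc34a2, a sodium-phosphate cotransporter of the apical membrane, was at 661, 1157 and 1126 CPM in the LC tumors and at 326, 213 and 295 CPM in the IP + LC tumors. Its log2 fold change was -1.82 (SE 0.28, edgeR adjusted p = 0.00267), and LC replicate 1 was the lowest of the LC tumors but still above every IP + LC tumor. Napsa, an aspartic protease that takes part in the maturation of surfactant protein B, was at 546, 563 and 546 CPM in the LC tumors and at 219.7, 187 and 249 CPM in the IP + LC tumors. The LC tumors were almost equal, with a coefficient of variation of 1.83%. The log2 fold change of Napsa was -1.34 (SE 0.20, edgeR adjusted p = 0.00221). An overlapping gene with a near-identical transcript, Gm15396, had 1 UMI in all tumors together.

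Etv5 (chromosome 16, from 22381309 to 22439719) and Lyz2 (chromosome 10, from 117277331 to 117282321) are less specific to type 2 cells. Etv5, an ETS transcription factor that keeps type 2 cells in their state and is also used by other cells, was at 17.2, 73.6 and 55.1 CPM in the LC tumors and at 23.9, 20.4 and 25.4 CPM in the IP + LC tumors. LC replicate 1, with 10 UMIs, lay below all IP + LC tumors, and LC replicates 2 and 3 lay above them. Its log2 fold change was -1.15 (SE 0.40, edgeR adjusted p = 0.0602). Etv5 did not pass when any 1 tumor other than LC replicate 1 was left out (edgeR adjusted p between 0.133 and 0.270). Without LC replicate 1 it passed, with a log2 fold change of -1.47 (edgeR adjusted p = 4.65e-05). Up to 100% of an Etv5 transcript had a near copy in Gm4798, which had 1 UMI in all tumors together. Lyz2, the lysozyme that mouse type 2 cells share with macrophages and neutrophils, was at 13418, 12374 and 13592 CPM in the LC tumors and at 5687, 5473 and 7043 CPM in the IP + LC tumors. The groups did not overlap, and the log2 fold change of -1.11 (SE 0.25, edgeR adjusted p = 0.0127) was the smallest of the 10 genes.

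Lyz2 RNA is also held by myeloid cells, whose marker lists are given here by their sums. The macrophage list, 8 genes such as Adgre1 and C1qa, summed to 4742, 1829 and 1547 CPM in the LC tumors and to 3107, 3889.7 and 3754 CPM in the IP + LC tumors, so that the groups overlapped through LC replicate 1. The alveolar macrophage list summed to 1746 to 2188 CPM in the LC and 229 to 476 CPM in the IP + LC group. The neutrophil list summed to 808 to 1955 CPM and to 157 to 332 CPM. Its most abundant genes, S100a9, S100a8 and Retnlg, were lower. Csf3r (27.9 ± 12.4 and 24.5 ± 7.46 CPM), Cxcr2 (20.9 ± 14.2 and 17.6 ± 4.57) and Mmp8 (19.1 ± 10.9 and 11.7 ± 1.89) overlapped between the LC and IP + LC tumors. They did not pass (edgeR adjusted p = 0.653, 0.663 and 0.175). None of the genes of these lists was at 0 in all tumors, and Ly6g did not exceed 2 UMIs in any. The part of these cells in the change of Lyz2 was not tested. Lyz1, a paralog, aligned with the Lyz2 transcript over 1264 nucleotides at 95.8% identity, so that reads of both may be confused. Lyz1 had 400, 918 and 1049 UMIs in the LC tumors and 327, 209 and 258 in the IP + LC tumors, 4.75% of the UMIs of Lyz2 in all.

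**Figure D2:**
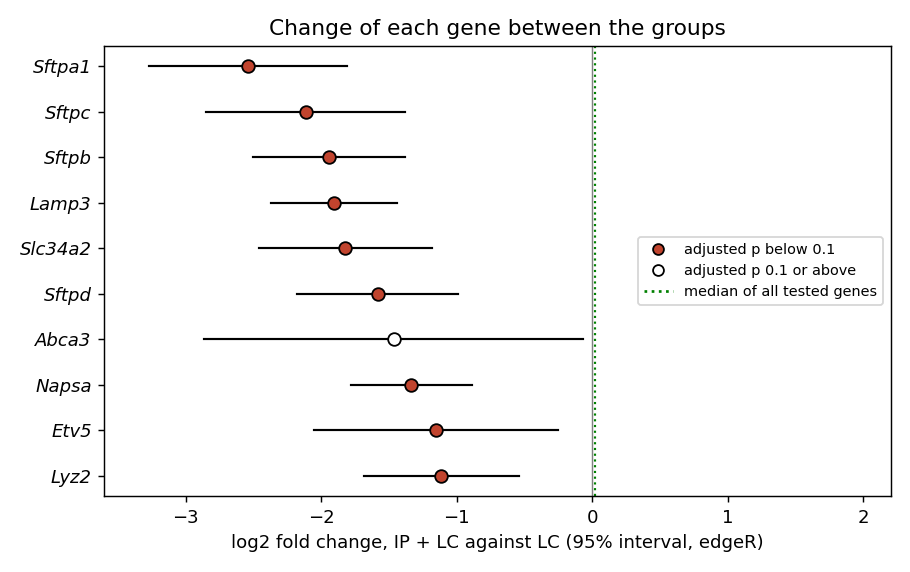
Log2 fold change of each gene between the IP + LC and LC groups (points) with its 95% interval from edgeR (lines), filled where the adjusted p-value was below 0.1, and the median of all 11240 tested genes as a dotted line. All points lie below 0, from -2.54 for Sftpa1 to -1.11 for Lyz2, and neighbouring intervals overlap.

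The lowest tumor of each group was shared by most of the genes, while the highest differed between them. Among the IP + LC tumors, the highest was replicate 1 for Sftpc (8024 CPM) and replicate 3 for Lyz2 (7043 CPM). IP + LC replicate 2 was the lowest of the IP + LC tumors for all 10 genes, and LC replicate 1 was the lowest of the LC tumors for 8 of them. Within the IP + LC group, the coefficient of variation was 37.6% for Sftpa1 and 29.4% for Sftpc, against 14.3% for Napsa and 14.0% for Lyz2. In the LC group it was 6.99% for Sftpa1 and 12.2% for Sftpc, against 1.83% for Napsa and 5.02% for Lyz2. Abca3, with the fewest UMIs, varied most in both groups, by 81.3% in LC and 60.9% in IP + LC tumors. Without IP + LC replicate 2, all 10 genes still had negative log2 fold changes, and 8 were called lower, against 1368 of 11787 tested genes.

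To compare the genes with each other without any scaling, their UMIs were set against those of Sftpc within each tumor. Per 1000 UMIs of Sftpc, Sftpb had 112, 120.1 and 103 UMIs in the LC tumors and 114, 139 and 131 in the IP + LC tumors, which overlapped. Sftpa1 had 285, 278 and 252 UMIs in the LC tumors and 219.6, 185 and 189.8 in the IP + LC tumors, so that it was lower relative to Sftpc in every IP + LC tumor. Napsa was higher relative to Sftpc, with 22.8, 20.3 and 17.8 UMIs against 27.4, 43.1 and 37.3. For Lyz2 the ratio was 560.1, 445 and 443 in the LC tumors and 709, 1262 and 1055 in the IP + LC tumors, a 2.04-fold increase of the mean ratio on the log scale. Sftpd (1.49-fold) and Etv5 (2.48-fold) were also without overlap, and Lamp3, Slc34a2 and Abca3 overlapped. These 5 ratios without overlap each had an exact permutation p of 0.1, the smallest possible, and 0.18 after adjustment over the 9 ratios, so that none can pass with 3 tumors per group. Only 3.02% of all tested genes had a lower log2 fold change than Sftpc, so that most genes rise relative to it. The share of all tested genes without overlap in their ratio to Sftpc was not computed. The ratio of Etv5 rests partly on LC replicate 1, at 0.719 UMIs against 2.65 and 1.80 in LC replicates 2 and 3.

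**Figure D3:**
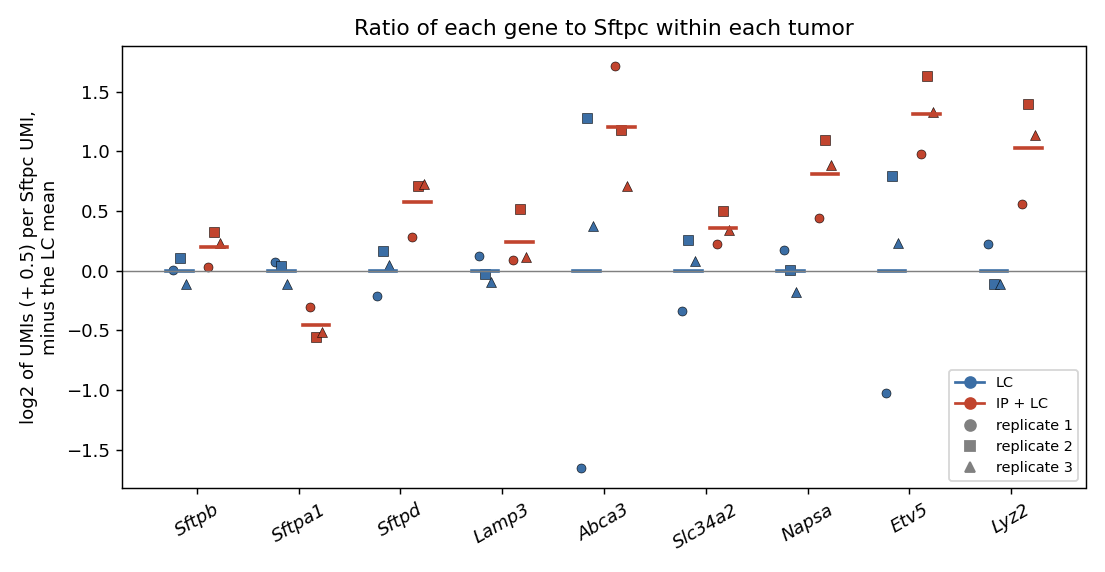
Log2 ratio of each gene to Sftpc within each tumor, from UMIs with 0.5 added, shown as the difference from the mean of the LC tumors (blue, LC tumors; red, IP + LC tumors; bars, means). Sftpa1 lies below its LC tumors in the IP + LC group and Sftpd, Napsa, Etv5 and Lyz2 lie above theirs, while LC replicate 1 sets the wide LC spread of Abca3 and Etv5.

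Other markers of type 2 cells moved in the same direction. Of 11 such genes, 10 passed as lower, with a median of -1.63 on the log2 scale. For this list and those that follow, the shares over all tested genes were 19.6% lower and 16.8% higher. The lung chemokine gene Cxcl15 went from 2199 ± 238 to 726 ± 120.4 CPM (SD, n = 3), and Chil1, which encodes a chitinase-like protein, from 884 ± 51.7 to 285 ± 32.2 CPM. The tight junction gene Cldn18, which type 1 cells share, was at 580.4 ± 337 and 331 ± 73.2 CPM and did not pass (edgeR adjusted p = 0.150), but did without LC replicate 1 (adjusted p = 0.000803).

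Of 9 regulators of type 2 cells, 6 passed as lower, with a median log2 fold change of -1.26. Nkx2-1 went from 88.4 ± 25.3 to 37.98 ± 11.7 CPM (log2 fold change -1.25, edgeR adjusted p = 0.0156). Cebpa, which supports lipid synthesis and maturation in type 2 cells, went from 78.9 ± 16.3 to 30.1 ± 4.20 CPM. Foxa1, Foxa2, Gata6 and Fgfr2, the receptor for fibroblast growth factors that type 2 cells depend on, were the other 4. Sox9, a factor of the embryonic lung tip that is also made outside the alveoli, was the only one called higher, from 3, 7 and 6 UMIs in the LC tumors to 24, 43 and 26 in the IP + LC tumors. Klf5, at 51.8 ± 39.1 and 69.4 ± 18.2 CPM, did not pass.

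Genes of surfactant lipid synthesis changed less evenly. Of 14 genes, 7 passed as lower and 1 as higher, with a median log2 fold change of -0.47. Scd1, which desaturates fatty acids, went from 1594 ± 373 to 501 ± 134 CPM (log2 fold change -1.67, edgeR adjusted p = 0.00374). Lpcat1, which remodels the main surfactant phospholipid, went from 374 ± 161 to 165 ± 22.1 CPM (edgeR adjusted p = 0.0287), and this call was lost without LC replicate 2 or without IP + LC replicate 2. Acsl4, at 208 ± 95.2 and 180.2 ± 14.8 CPM, did not pass, but did without LC replicate 1 (adjusted p = 0.00688). The number of these genes called lower was between 3 and 9 when each tumor was left out in turn, with 3 when LC replicate 2 or IP + LC replicate 2 was left out and 4 when IP + LC replicate 1 or 3 was left out. Elovl6, the 1 gene called higher, was not called without LC replicate 3, IP + LC replicate 1 or IP + LC replicate 2.

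Of 12 genes for the processing, storage and release of surfactant, 11 were tested, 4 passed as lower and 3 as higher, with a median log2 fold change of -0.20. Over all tested genes, 19.6% passed as lower and 16.8% as higher. Adgrf5, the receptor that limits surfactant secretion and that endothelium shares, went from 391 ± 121 to 122 ± 18.9 CPM (edgeR adjusted p = 0.00335). Vamp8, a protein of membrane fusion, went from 477 ± 90.3 to 269 ± 26.9 CPM, and its call was lost without IP + LC replicate 1 or 2. Ctsh, a protease of surfactant protein maturation that macrophages also hold, was at 322 ± 58.2 and 280.2 ± 62.3 CPM and did not pass. The genes called higher were Hps1, Ap3b1 and Ap3d1, which sort cargo to lysosome-related organelles in many cell types. Without each tumor in turn, the number called lower lay between 2 (without IP + LC replicate 1 or 2) and 4, and all 3 calls of higher genes were lost when LC replicate 2 or IP + LC replicate 2 was left out. When IP + LC replicate 1 or 3 was left out, 1 gene was called higher.

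Of 7 genes of surfactant clearance, by which alveolar macrophages degrade surfactant under the cytokine GM-CSF, 6 were tested. The receptor genes Csf2ra and Csf2rb passed as higher, and Pparg, the factor that GM-CSF induces in alveolar macrophages, passed as lower, with a median log2 fold change of 0.08 over the list. Csf2ra went from 52.3 ± 9.81 to 74.5 ± 7.85 CPM (edgeR adjusted p = 0.0992), and was not called when any 1 tumor other than LC replicate 1 was left out, which left 1 gene called higher. Without LC replicate 1, 3 genes of the list were called lower. Abcg1, a lipid exporter, was at 155 ± 103 and 133 ± 30.9 CPM, and Spi1, a myeloid transcription factor, at 99.4 ± 40.8 and 130.04 ± 8.39 CPM. Neither passed, although both did without LC replicate 1 (adjusted p = 0.00447 and 0.000658).

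**Figure D4:**
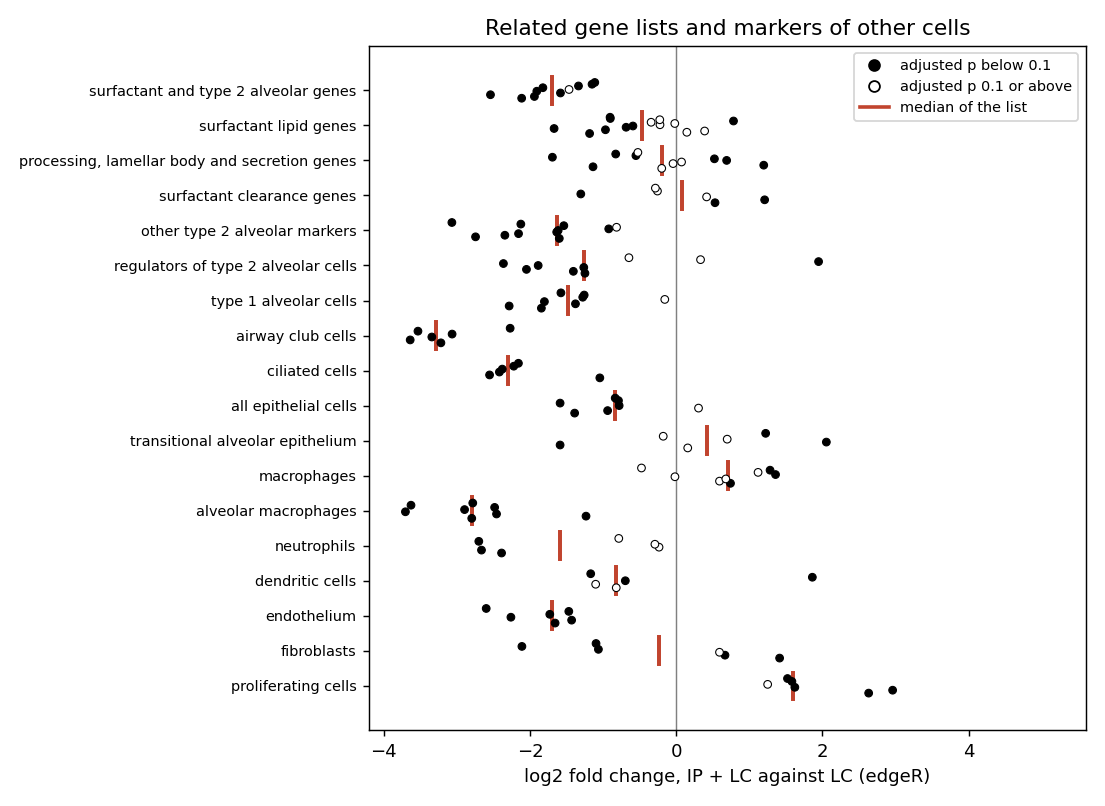
Log2 fold change between the IP + LC and LC groups of the tested genes of each list (points, filled where the adjusted p-value was below 0.1) with the median of the list (red bar). The medians are -1.70 for the surfactant and type 2 alveolar genes, -1.48 for type 1 alveolar cells and -3.28 for airway club cells, and 0.71 for macrophages and 1.60 for proliferating cells.

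Markers of other cells of the lung were also lower. For type 1 alveolar cells, 7 of 8 genes passed as lower, with a median log2 fold change of -1.48, and Ager went from 1377 ± 494 to 383 ± 70.4 CPM, Hopx from 985 ± 434 to 202 ± 44.1 CPM and Emp2 from 592 ± 106 to 244 ± 22.6 CPM. The genes of airway club cells had the lowest median of all lists, -3.28, and all 6 passed as lower. Scgb1a1, the main secreted protein of these cells, went from 41458 ± 2981 to 4454 ± 1658 CPM, and Cyp2f2 and Scgb3a2 had log2 fold changes of -3.07 and -3.34. All 6 genes of ciliated cells passed as lower, with a median of -2.30, and Tppp3, Ccdc153 and Dynlrb2 had log2 fold changes of -2.55, -2.42 and -2.38. Like the 10 type 2 genes, the summed type 1, club and ciliated lists were lowest in IP + LC replicate 2 among the IP + LC tumors, at 1074, 3474 and 148 CPM.

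Among 7 genes of all epithelial cells, 6 passed as lower, with a median log2 fold change of -0.83. Krt19 went from 224 ± 40.1 to 74.9 ± 21.3 CPM and Krt7 from 210.4 ± 59.8 to 121 ± 34.5 CPM, and the call of Krt7 was lost without LC replicate 3, IP + LC replicate 1 or IP + LC replicate 2. Krt8 was at 172 ± 73.3 and 211 ± 10.3 CPM and did not pass with all tumors. Without LC replicate 1, Krt8 was higher (adjusted p = 0.00171). The number called lower fell to 2 when LC replicate 3 or IP + LC replicate 2 was left out, and to 3 when IP + LC replicate 1 was. Of the 7 genes of transitional alveolar epithelium, the state in which type 2 cells turn into type 1 cells after injury, 6 were tested. Areg and Tnip3 passed as higher and Krt19 as lower, and the median was 0.43. The number called higher was 1 without LC replicate 2, IP + LC replicate 2 or IP + LC replicate 3. Cdkn1a, at 135 ± 45.8 and 221 ± 40.7 CPM, did not pass by edgeR with TMM scaling and all tumors (adjusted p = 0.1005). It passed without LC replicate 1 (0.0271) or LC replicate 3 (0.0986) and, with all tumors, with library size only (0.0435), with no filter (0.0268) and with limma voom and quality weights (0.0343). Itgb6 was at 23.4 ± 13.7 and 22.3 ± 6.74 CPM.

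Of the other cells of the tumor, all 8 genes of alveolar macrophages passed as lower, with a median log2 fold change of -2.79, among them Chil3 (-2.46), Fabp4 (-2.48) and Car4 (-2.78). All 6 endothelial genes passed as lower, with a median of -1.69, among them Cldn5 (-2.26), Pecam1 (-1.66) and Cdh5 (-1.43). Of 7 neutrophil genes, 6 were tested and 3 passed as lower, with a median of -1.59, and these were S100a9 (-2.66), S100a8 (-2.39) and Retnlg (-2.70).

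Of 8 macrophage genes, 3 passed as higher, with a median of 0.71. These were Adgre1, C1qa (1.36) and C1qc (1.28). Without LC replicate 1, the log2 fold changes of C1qa and C1qc were 2.40 and 2.14 and 6 genes were called higher, and all 3 calls were lost when any other single tumor was left out. Apoe was at 1457 ± 853 and 1047 ± 164 CPM and did not pass, with a log2 fold change of -0.47 that became 0.13 without LC replicate 1. Of 7 dendritic cell genes, 5 were tested. Ccr7 (-0.70) and Cd209a (-1.17) passed as lower and Fscn1 (1.86, or 2.65 without LC replicate 1) as higher, with a median of -0.82, and Clec9a (-1.10) did not pass with all tumors but did without LC replicate 1 (adjusted p = 0.0357) or IP + LC replicate 3 (0.0771). Leaving out LC replicate 2, LC replicate 3 or IP + LC replicate 1 ended both calls, leaving out IP + LC replicate 2 left 1 gene called lower, and leaving out LC replicate 1 gave 4. Ccr7 also lost its call without IP + LC replicate 3 (edgeR adjusted p = 0.159), with library size only, with no filter on low counts and with DESeq2. The summed dendritic list was at 128 to 157 CPM in the LC and 149 to 195 CPM in the IP + LC tumors, and its part in the change of Lamp3 was not tested.

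Of 6 fibroblast genes, 3 passed as lower and 2 as higher, with a median of -0.24, Dcn (-2.11) among the lower and Col1a2 (0.67) among the higher. The call of Col1a2 was lost without LC replicate 3 or IP + LC replicate 2, which left 1 gene called higher, and Col3a1 (0.59) did not pass by edgeR with TMM scaling and all tumors. It passed without LC replicate 1 (adjusted p = 0.000213) and, with all tumors, with library size only (0.0686), with no filter (0.0639) and with limma voom and quality weights (0.0016). Of 6 genes of proliferating cells, 5 passed as higher, with a median of 1.60. Top2a went from 57.2 ± 38.4 to 426 ± 26.3 CPM, a log2 fold change of 2.96, or 3.61 without LC replicate 1. Birc5 (1.58) was called with all tumors or without LC replicate 1 and with no other tumor left out, when 3 genes of the list were called, and Cdk1 (1.25) did not pass with all tumors but did without LC replicate 1 (adjusted p = 9.50e-08). Without that tumor the log2 fold changes of Birc5 and Cdk1 were 2.88 and 2.93. The summed list was at 486 CPM in LC replicate 1, at 110.5 and 112 CPM in LC replicates 2 and 3 and at 867 to 999.9 CPM in the IP + LC tumors. The share of tumor cells in each sample was not measured here, and its part in the lower surfactant transcripts was not tested.

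As a description over the 6 tumors, the pattern of Sftpc on log2(CPM + 4) was most like that of Igfbp6 (Pearson's r = 0.9997), Rnf186 (0.9995), Map1lc3b (0.999), Tppp3 (0.999) and Lyz1 (0.999) among the tested genes outside the 10. All 5 were lower in the IP + LC group, Igfbp6 from 278 ± 37.5 to 41.1 ± 16.05 CPM, Rnf186 from 20.2 ± 2.84 to 3.05 ± 1.67 CPM, Map1lc3b from 222 ± 8.95 to 121 ± 13.1 CPM and Lyz1 from 766 ± 108 to 182 ± 57.7 CPM. Of the type 2 genes themselves, r with Sftpc was 0.998 for Sftpa1, 0.996 for Sftpb and 0.992 for Lamp3, and 0.983 for Napsa, 0.979 for Slc34a2 and Sftpd and 0.962 for Lyz2. It was 0.619 for Etv5 and 0.536 for Abca3, the genes with the fewest UMIs. The 6 points form 2 separate groups, so these values share the difference between the groups.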

How the data were processed

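RNA of tumor tissue from 3 LC and 3 IP + LC mice was sequenced by bulk RNA barcoding. The authors extracted UMIs of 10 nucleotides with UMI-tools 1.1.1, trimmed reads with Trim Galore 0.6.7, aligned them to GRCm38 with HISAT2 2.2.1, assigned them with featureCounts 2.0.1 and counted different UMIs per gene. The deposited values are UMI counts without normalization, 1 table per tumor. The annotation release and strand setting are not given in the sources used here. Equal UMIs hide about 1.73% of the molecules at the highest count of these genes, 36166 for Sftpc.

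Counts were compared in R 4.3.3 with edgeR 4.0.16 (filterByExpr with a minimum count of 10 and total of 15, TMM, quasi-likelihood test, no block, adjusted p below 0.1). CPM are after TMM over the tested genes, which held 96.1% to 98.5% of the UMIs. Alternatives were DESeq2 size factors, library size only, no filter, DESeq2 1.42.0, limma 3.58.1 voom with sample quality weights, a replicate block and each tumor left out. Ratios used 0.5 added UMIs. Gene positions and transcripts came from GENCODE M21 on GRCm38. Near copies were matches of at least 81 nucleotides and 95% identity in blastn. The procedure was tested on simulated data. In that simulation few genes changed, evenly in both directions, and the spread was the same in both groups. It therefore cannot speak to scaling under many changes or to unequal spread between the groups. Named were the 10 genes, the 3 most abundant genes of each list, the 5 genes most like Sftpc, and others of a list where its calls are given, chosen after their values were seen. The 10 genes and the lists were chosen with earlier results of these data known. The labels do not name litters or cages, so p-values measure the spread between these tumors.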

Additional observations from a re-analysis of the deposited data

How the results depend on the processing

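The 10 genes kept a negative log2 fold change in all 12 alternatives, and 8 of them (Sftpc, Sftpb, Sftpa1, Sftpd, Lamp3, Slc34a2, Napsa and Lyz2) stayed past the limit in all 12. Between 8 and 10 of the 10 genes were called lower. Abca3 passed in 3 alternatives, with no filter on low counts (log2 fold change -1.35), with limma voom and quality weights (-1.96) and without LC replicate 1, and its log2 fold change lay between -2.01 and -0.80 when each tumor was left out. Etv5 passed in 6 and lay between -1.47 and -0.75. The replicate numbers are not said to mark a shared litter or day, and the deviations of same-numbered tumors had correlations of 0.026, -0.120 and 0.112, so they were not taken as pairs. With the replicate block, the log2 fold change of Etv5 was -1.004, which did not pass (edgeR adjusted p = 0.123), 8 of the 10 genes were called, and LC replicate 1 correlated best with IP + LC replicate 2. The block left 4 lipid genes called lower, 1 processing and 1 clearance gene called higher, and 1 dendritic cell gene called lower, while Abcg1 turned to 0.018. Cdkn1a (0.75, adjusted p = 0.0631 by edgeR) and Cdk1 (1.83, adjusted p = 0.0635) passed with the block, so that 3 genes of transitional epithelium and 6 of proliferating cells were called higher.

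Over all tested genes, 2203 were called lower and 1885 higher. Without each tumor in turn these were 1368 to 3367 and 897 to 3324, the lowest without IP + LC replicate 2 and the highest without LC replicate 1, and 1016 and 1088 were called higher without LC replicate 2 and IP + LC replicate 1. With voom and quality weights 3180 were called higher, 1 of them in the list of all epithelial cells and 6 in the macrophage list, and 4 dendritic cell genes were called lower. With library size only, the median of all genes moved by 0.16, 2520 genes were called higher and 1800 lower, and 4 lipid genes and 1 dendritic cell gene were called lower. With DESeq2, 0 lipid, 1 processing and 1 clearance gene were called higher and 0 dendritic cell genes lower. DESeq2 size factors left 1 clearance gene called higher. No filter left 1 clearance gene called higher and 1 dendritic cell gene called lower, with 6 macrophage genes called higher. With 1 tumor left out, the number called higher was 0 to 1 for all epithelial cells and lipid genes, 0 to 3 for processing, 1 to 3 for clearance, fibroblasts and transitional epithelium, 0 to 6 for macrophages and 3 to 6 for proliferating cells. The number called lower was 3 to 9 for lipid genes, 2 to 4 for processing, 1 to 3 for clearance, 2 to 6 for all epithelial cells and 0 to 4 for dendritic cells. Among the genes named here, those that did not pass and changed sign were Acsl4, Abcg1, Klf5, Itgb6 and Apoe. With each tumor left out, their log2 fold changes lay between -0.52 and 0.058 for Acsl4, -0.68 and 0.044 for Abcg1, -0.083 and 0.65 for Klf5, -0.45 and 0.19 for Itgb6 and -0.72 and 0.13 for Apoe, which was 0.00106 with voom and quality weights. Of the named list genes, Cdkn1a and Col3a1 were gained with library size only, Cldn18, Cdkn1a, Clec9a, Col3a1 and Cdk1 with no filter, and these and Spi1 and Krt8 with voom. Csf2ra was lost with DESeq2 size factors, DESeq2, no filter and the block, Ccr7 with DESeq2, library size only and no filter, and Krt7 with library size only. The cause of these changes was not tested. In LC replicate 1, the exact 95% Poisson interval of Etv5 was 8.26 to 31.7 CPM, below those of LC replicates 2 and 3, which began at 59.5 and 42.5 CPM, and that of Abca3 ended at 12.4 CPM, below theirs, which began at 27.7 and 14.4 CPM. These intervals cover counting error only and not the spread between mice.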
